A study of Homo sapiens with 6 samples.

Results

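The genes that carry iron into cells, move it across membranes or let it out were followed at the level of genes and of transcripts. They are TFRC, TFR2, SLC11A2, STEAP3, SLC39A14, SLC39A8, SLC40A1, HFE, HEPH and HAMP. They were chosen by name, for their role in iron transport and not by a measured value, although earlier results of these data were known. The list is 10 of the 62252 genes to which the transcripts of the series were matched. All 10 passed the limit of a mean count above 10 and are among the 21045 genes tested.

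K562 is a human leukemia line with features of red cell precursors. The cells came from 1 clone in which a lox-flanked cassette had been placed at the AAVS1 locus with Cas9, and this cassette was then exchanged for Flag-tagged PCBP1, a poly C binding protein that also carries iron, under a tet-inducible promoter. The resulting line was polyclonal and was kept under puromycin. Libraries of polyA RNA were made from 3 samples without doxycycline (−Dox) and 3 with it (+Dox). All 6 libraries carry the cassette. Exposure to Dox and induction of Flag-PCBP1 come together in +Dox and cannot be told apart. The dose and duration of Dox are not given for these libraries in the sources used here, nor whether replicates are separate cultures, so the p-values measure the spread between samples, which may be technical. Estimated counts summed to 84177316, 80104627 and 74766040 in −Dox and to 70905656, 82263502 and 82449808 in +Dox.

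PCBP1 itself was at 248, 270 and 267 CPM in −Dox (the count relative to a library size scaled by TMM) and at 1030, 936 and 1037 CPM in +Dox, a 3.83-fold ratio of the means (edgeR, adjusted p = 5.22e-10). The +Dox libraries therefore carry the labelled overexpression, although reads of the cassette and of the endogenous gene were not separated. Erythroid markers were present, since the regulator GATA1 and the fetal globin HBG2 were at 157 to 183 and 3393 to 3862 CPM over the 6 libraries.

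In most cells, iron bound to transferrin enters through transferrin receptor 1 (TFRC), is reduced in endosomes by STEAP3 and crosses the endosomal membrane through the divalent metal transporter DMT1 (SLC11A2), while ZIP14 (SLC39A14) and ZIP8 (SLC39A8) take up iron that is not bound to transferrin. Ferroportin (SLC40A1) is the known cellular exporter, hephaestin (HEPH) is a ferroxidase that works with it, and hepcidin (HAMP), a liver hormone, closes it. TFR2 and HFE belong to the system that senses transferrin iron. Several of these mRNAs carry an iron responsive element (IRE), a hairpin bound by iron regulatory proteins when iron is low: an IRE in the 3′ untranslated region (UTR) protects the mRNA of TFRC, and an IRE in the 5′ UTR holds back translation of ferroportin.

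The IRE is shown first because it sorts the transcripts of TFRC, SLC11A2 and SLC40A1. The GENCODE 44 transcripts were searched on their own strand for the letters CNNNNNCAGTGNNNNNN with 5 base pairs (G–T allowed) between the bases on either side of a 6-base loop, and at most 1 extra base on the 3′ side. Of 252835 transcripts 1.86% held such letters, so a match is a description of sequence and not proof of a working element. Matches are given here for TFRC, SLC11A2 and SLC40A1, and no statement is made about matches in the other genes of the 10. Of the 62700 genes searched 2.74% had a match. The loop is in capitals, with 30 bases shown 5′ to 3′ on the minus strand of GRCh38.
SLC40A1, chr2:189580660-189580689, 5′ UTR, exon 1 of 8 of SLC40A1-201: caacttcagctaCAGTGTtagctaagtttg
SLC11A2, chr12:50988268-50988297, 3′ UTR, exon 16 of 16 of SLC11A2-201: agccatcagagcCAGTGTgtttctatggtt
TFRC, chr3:196050978-196051007, 3′ UTR, exon 19 of 19 of TFRC-201: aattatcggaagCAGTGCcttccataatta
TFRC, chr3:196050574-196050603, same exon: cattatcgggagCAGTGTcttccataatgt
TFRC, chr3:196050509-196050538, same exon: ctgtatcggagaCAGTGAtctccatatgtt
TFRC, chr3:196050462-196050491, same exon: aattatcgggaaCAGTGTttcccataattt

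The 4 TFRC hairpins share the loop start CAGTG, which the search required, and the loop's last base is not the same in all of them. The SLC11A2 hairpin needs the extra base on its 3′ side, which those of SLC40A1 and TFRC do not. The letters were carried by 26 of 38 annotated TFRC transcripts, 8 of 33 of SLC11A2 and 3 of 7 of SLC40A1.

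At an adjusted p under 0.05 (edgeR's quasi-likelihood test, Benjamini-Hochberg adjustment over all genes tested), 6 of the 10 genes differed between +Dox and −Dox, where 15.8% of all genes tested did. TFR2, SLC11A2 and SLC39A8 rose, against 8.16% of all genes, and TFRC, SLC39A14 and SLC40A1 fell, against 7.68%. The call of SLC40A1 was lost when any library was left out, which leaves 5 of the 10. The changes were modest: no gene of the 10 passed the study's additional limit of an absolute log2 fold change above 1, which 1.46% of all genes tested passed, and the largest called change was 0.50. The values of the groups did not overlap for 7 of the 10 genes, as for 33.2% of all genes tested. The median log2 fold change of the 10 genes was −0.03, beside 0.01 over all genes tested. In these bulk libraries, fewer cells that express a gene and less of its RNA per cell cannot be told apart.

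**Figure D1:**
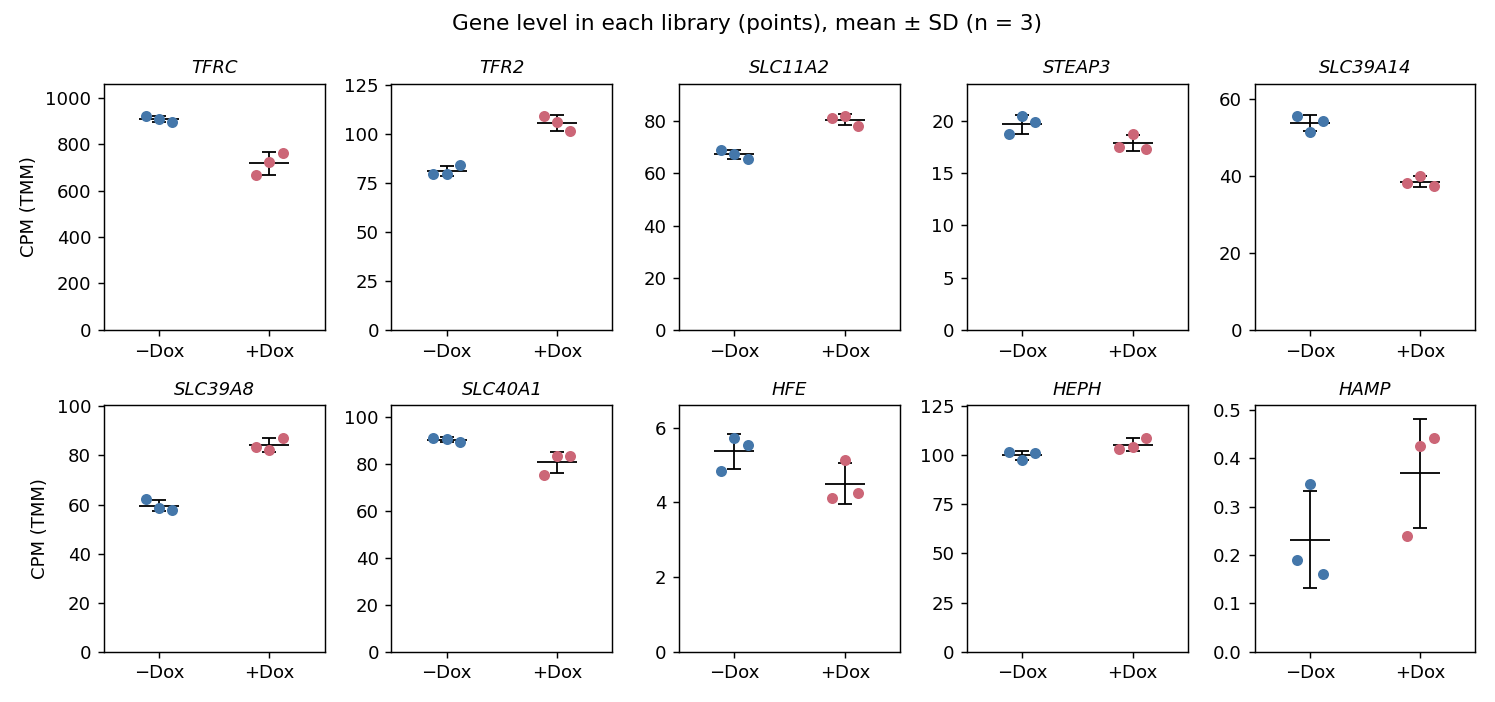
Level of each gene in CPM (vertical axes, from 0, TMM-scaled) in the 6 libraries, with points for libraries and lines for the mean ± SD of 3. The groups do not overlap for 7 of the 10 genes, and STEAP3, HFE and HAMP overlap.

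TFRC, the main receptor for transferrin-bound iron (ENSG00000072274.14, chromosome 3, 196012511 to 196082153), was the most abundant of the 10 genes. It was at 923, 908 and 896 CPM in −Dox and at 666, 724 and 763 CPM in +Dox. All +Dox libraries lay below all −Dox libraries, and +Dox replicate 1 was the lowest. TFRC fell by 0.34 ± 0.05 (SE) on the log2 scale (adjusted p = 0.000856). The transcript TFRC-201, the 5012-base coding form with all 4 hairpins, held 139, 139 and 142 TPM in −Dox, a unit that also corrects for transcript length, and 97.2, 112 and 111 TPM in +Dox. Its share of the gene's TPM was 74.9% ± 2.32 in −Dox and 73.4% ± 1.75 in +Dox (SD, n = 3), with overlapping groups, so no change in its share was detectable (limma, adjusted p = 0.851). Transcripts with the IRE letters held 172.7 ± 3.60 TPM in −Dox and 132 ± 9.98 TPM in +Dox, and those without them 14.2 ± 1.42 and 13.2 ± 2.88 TPM (SD, n = 3). They made up 92.4% and 90.9% of the gene's TPM, with overlapping groups (exact permutation test, two-sided, p = 0.3). TFRC shares 1.1% of its exon bases with ENSG00000286168 on the opposite strand, which was at 0.693 to 1.25 CPM over the 6 libraries (log2 fold change 0.42 ± 0.26, adjusted p = 0.328).

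TFR2, the second transferrin receptor, known from liver and erythroid precursors (ENSG00000106327.13, chromosome 7, 100620416 to 100642779), went the other way. Its values were 79.5, 79.7 and 84.05 CPM in −Dox and 109, 106 and 101 CPM in +Dox. The groups did not overlap, and TFR2 rose by 0.38 ± 0.05 on the log2 scale (adjusted p = 0.000274). With an offset for the average length of its transcripts the rise was 0.25 (edgeR, adjusted p = 0.027), and 0.24 in DESeq2 with the same offset (adjusted p = 0.00243). Its 2 most abundant coding forms were TFR2-205, at 7.96, 9.16 and 7.03 TPM in −Dox and 10.0, 11.8 and 11.97 TPM in +Dox, and TFR2-201, at 4.29, 3.22 and 8.10 TPM against 10.5, 9.79 and 6.19 TPM. The groups separated for TFR2-205 and overlapped for TFR2-201. The short retained-intron transcripts TFR2-211 (610 bases) and TFR2-203 (692 bases) held 19.5% and 18.5% of the TPM in −Dox and 18.9% and 14.6% in +Dox.

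SLC11A2, the endosomal and apical iron transporter DMT1 (ENSG00000110911.17, chromosome 12, 50979401 to 51028566), was at 69.0, 67.5 and 65.5 CPM in −Dox and 81.3, 82.0 and 78.0 CPM in +Dox. The groups were separate, and the gene rose by 0.26 ± 0.05 on the log2 scale (adjusted p = 0.00318). STEAP3, the endosomal ferrireductase (ENSG00000115107.20, chromosome 2, 119223831 to 119265652), was at 18.7, 20.5 and 19.9 CPM in −Dox and 17.5, 18.8 and 17.3 CPM in +Dox. Its groups overlapped and its log2 fold change of −0.14 ± 0.07 did not pass (adjusted p = 0.185), nor did the −0.22 found with a length offset. STEAP3 shares 10.96% of its exon bases with the opposite-strand gene STEAP3-AS1, which was at or below 0.733 CPM in each library, and the strand setting of the quantification is not given in the sources used here.

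The ZIP transporters moved in opposite directions. SLC39A14 (ENSG00000104635.15, chromosome 8, 22367278 to 22434129) was at 55.6, 51.5 and 54.2 CPM in −Dox and 38.1, 40.0 and 37.3 CPM in +Dox. No +Dox library reached the lowest −Dox library, and the gene fell by 0.48 ± 0.05 on the log2 scale (adjusted p = 8.83e-05). SLC39A8 (ENSG00000138821.14, chromosome 4, 102251080 to 102431258) was at 62.3, 58.6 and 57.8 CPM in −Dox and 83.4, 82.1 and 87.3 CPM in +Dox. It rose by 0.50 ± 0.05 on the log2 scale, with separate groups (adjusted p = 4.23e-05). In −Dox these genes had means of 53.8 and 59.6 CPM, and in +Dox of 38.5 and 84.3 CPM.

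The exporter SLC40A1 (ENSG00000138449.11, chromosome 2, 189560590 to 189583758) was at 91.3, 90.8 and 89.2 CPM in −Dox and 75.4, 83.3 and 83.4 CPM in +Dox. The groups did not overlap, with +Dox replicate 1 lowest as for TFRC, and the gene fell by 0.16 ± 0.05 on the log2 scale (adjusted p = 0.0491). This call lay at the threshold and was lost when any library was left out, with adjusted p from 0.066 to 0.178 and a log2 fold change of −0.19 to −0.12. Its partner HEPH (ENSG00000089472.18, chromosome X, 66162671 to 66268867) was at 101.3, 97.4 and 101 CPM in −Dox and 103, 104 and 109 CPM in +Dox. All +Dox values were above all −Dox values, as for 17.4% of all genes tested, but the difference of 0.08 ± 0.05 on the log2 scale did not pass (adjusted p = 0.315).

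HFE and HAMP, of the sensing system, were scarce. HFE (ENSG00000010704.19, chromosome 6, 26087281 to 26098343) was at 4.85, 5.74 and 5.53 CPM in −Dox and 4.13, 5.13 and 4.25 CPM in +Dox, with overlapping groups and a log2 fold change of −0.25 ± 0.13 (adjusted p = 0.209). It shares 7.58% of its exon bases with H2BC4 on the opposite strand, which was at 23.3 to 24.5 CPM in −Dox and 25.6 to 28.0 CPM in +Dox. HAMP (ENSG00000105697.9, chromosome 19, 35280716 to 35285143) had 12 to 36 counts per library. It was at 0.189, 0.347 and 0.161 CPM in −Dox and 0.24, 0.426 and 0.443 CPM in +Dox, and a difference was not detectable at this depth (log2 fold change 0.67 ± 0.48, adjusted p = 0.404, and 0.11 to 1.07 over the alternatives).

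Levels of different genes were compared per length, in TPM. In −Dox the order of whole-gene TPM was TFRC (186.9 ± 4.75), SLC40A1 (49.5 ± 2.31), TFR2 (46.7 ± 3.63), SLC11A2 (25.5 ± 1.60), HEPH (21.0 ± 1.39), SLC39A8 (20.4 ± 1.13), SLC39A14 (12.1 ± 0.626), STEAP3 (5.37 ± 0.198), HFE (1.47 ± 0.196) and HAMP (0.687 ± 0.498; SD, n = 3). The −Dox ranges of SLC40A1 and TFR2 overlapped, as did those of HEPH and SLC39A8, and the other neighbours were separate. In +Dox TFR2 (54.1 ± 2.95) stood above SLC40A1 (43.2 ± 2.33) and SLC39A8 (27.4 ± 0.807) above HEPH (21.8 ± 1.18), with no overlap between any neighbours. Whole-gene TPM weighs short retained-intron transcripts heavily: counted over protein-coding transcripts only, TFR2 was at 13.3 ± 1.67 TPM in −Dox and 20.4 ± 1.76 TPM in +Dox, below SLC40A1 in both groups (46.7 ± 2.18 and 40.5 ± 2.05 TPM). On that scale SLC39A8 (18.5 ± 1.17 and 25.8 ± 0.698 TPM) was above HEPH (7.27 ± 0.355 and 11.3 ± 0.213 TPM) in both groups. Neither change of order in whole-gene TPM was therefore present in the coding sums. The SLC40A1 sum includes short coding fragments, among them SLC40A1-206 (592 bases) at 13.3 TPM in −Dox and 12.15 TPM in +Dox. The longer SLC40A1-201 alone was at 24.64 ± 0.567 TPM in −Dox and 21.37 ± 1.81 TPM in +Dox. It was above coding TFR2 in −Dox and overlapped it in +Dox, so the order of TFR2 and SLC40A1 in +Dox depended on the fragments. In the coding sums the order differed for other pairs. TFR2 overlapped SLC11A2 (14.9 ± 0.482 TPM) in −Dox and was above it (16.7 ± 0.476 TPM) in +Dox. HEPH was below SLC39A14 (11.6 ± 0.481 TPM) in −Dox and above it (8.38 ± 0.77 TPM) in +Dox.

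**Figure D2:**
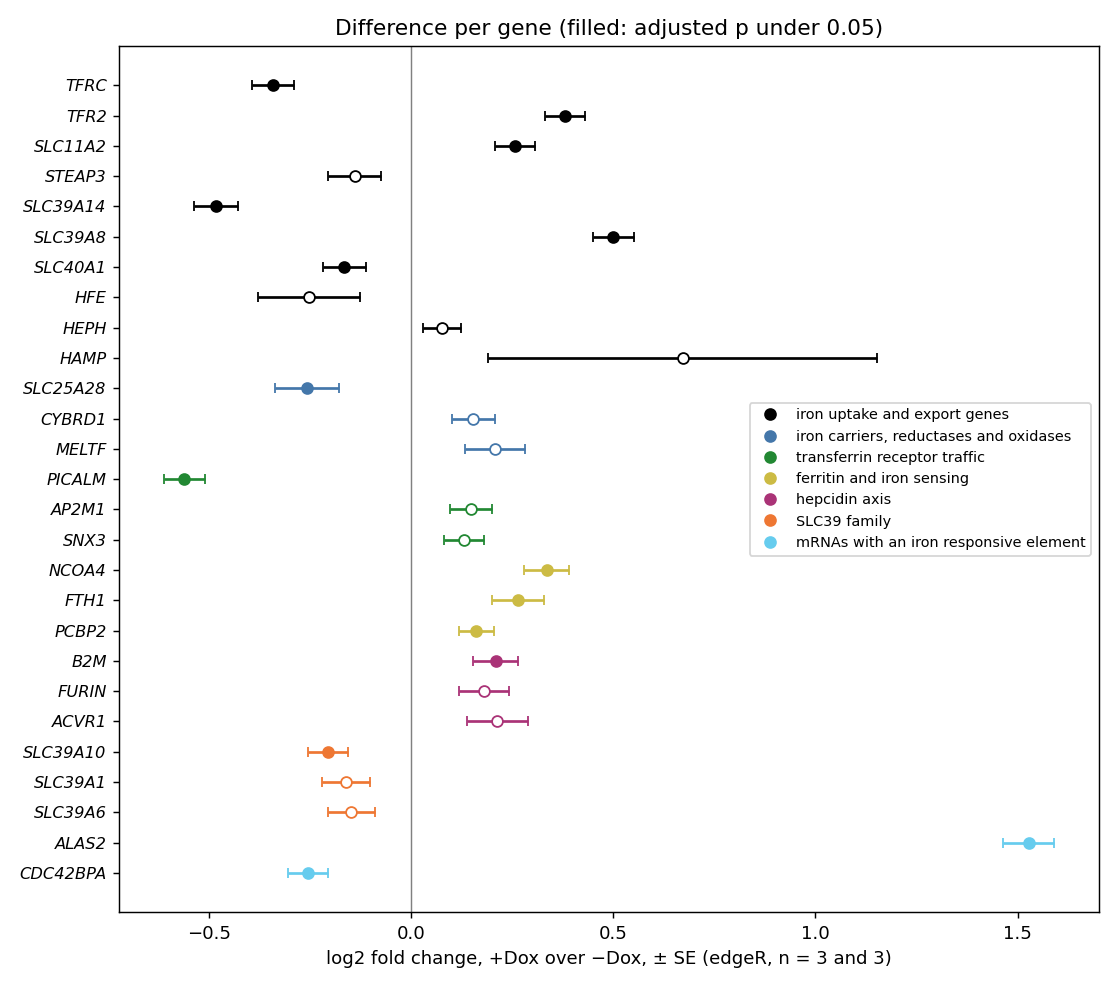
Log2 fold change of +Dox over −Dox ± SE (horizontal axis) for the 10 genes and for the up to 3 genes with the smallest p of 6 related lists, filled where the adjusted p is under 0.05. TFR2, SLC11A2 and SLC39A8 lie to the right of 0, TFRC, SLC39A14 and SLC40A1 to the left, and ALAS2 is farthest right at 1.53.

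For transcript use within a gene, each transcript, first exon or last exon was set against the rest of its gene as a log2 ratio and fitted with limma. At an adjusted p under 0.05, 0 of 55 transcripts of these genes passed, as did 0 of 31 first-exon groups and 0 of 25 last-exon groups, beside 0.0609%, 0.0444% and 0.0309% of all those tested. At an unadjusted p under 0.05 the counts were 9, 0 and 0, beside 8.49%, 7.62% and 8.03% of all those tested. The isoform values below are therefore descriptions with their spread, and a missed threshold does not show that the shares were equal.

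For SLC11A2, the question was whether the ends with and without the IRE moved alike. Transcripts with the IRE held 10.3, 9.09 and 9.40 TPM in −Dox and 10.3, 11.2 and 9.31 TPM in +Dox, with overlapping groups. Transcripts without it held 17.1, 15.3 and 15.5 TPM in −Dox and 20.9, 20.2 and 21.95 TPM in +Dox, with all +Dox libraries above all −Dox libraries. The IRE share of the gene's TPM was 37.5%, 37.3% and 37.8% in −Dox and 33.0%, 35.7% and 29.8% in +Dox. This share was lower by 4.72 percentage points (SE 1.70) in +Dox with no overlap, at p = 0.1 in a two-sided exact permutation test, the smallest p that 3 against 3 can give. Over coding transcripts only, the difference was −3.07 points with overlapping groups. Fitted by last exon, as the ratio to the rest of the gene, the change did not pass (limma, log2 ratio −0.29 ± 0.14, adjusted p = 0.642).

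The share of the other main coding end overlapped between the groups. The last exon that starts at 50988435 carries the IRE in 8 of its 9 transcripts, the exception being SLC11A2-207, whose exon ends before it at 50988320 and which held 0.204 ± 0.174 TPM in −Dox and 0.275 ± 0.239 TPM in +Dox. The last exon that starts at 50981803 ends the coding transcript SLC11A2-229 without the IRE. The group at 50988435 held 9.78 ± 0.494 TPM in −Dox and 10.5 ± 0.736 TPM in +Dox, and the group at 50981803 held 6.43 ± 0.24 and 7.23 ± 0.659 TPM (25.2% ± 1.963 and 23.1% ± 2.06 of the gene). Over the transcripts with either of these 2 ends, a comparison added after the data were seen, the IRE share was 59.1% ± 2.54 in −Dox and 57.7% ± 3.69 in +Dox, with overlapping groups (exact permutation test, two-sided, p = 0.6). Of the 15 last-exon groups, those whose shares were higher in all +Dox libraries were short transcripts of few counts: SLC11A2-225, at 0.685% ± 0.4 in −Dox and 2.79% ± 1.52 in +Dox with 3 to 37 counts per library, and SLC11A2-224, at 0.247% ± 0.238 and 2.42% ± 0.618 with 0 to 27 counts. The nonsense-mediated decay transcript SLC11A2-206 (last exon from 50980058) held 9.27% ± 1.43 and 10.7% ± 2.02. The other tested last exons, from 51005677, 51008624 and 51000419, held 9.58%, 8.52% and 3.39% in −Dox and 9.60%, 7.20% and 4.25% in +Dox, with overlapping groups. Each of the remaining last exons held at most 1.67% in either group on average. Summed over the gene, coding transcripts were at 14.9 ± 0.482 TPM in −Dox and 16.7 ± 0.476 TPM in +Dox, and all other transcripts at 10.6 ± 1.55 and 14.5 ± 0.409 TPM (SD, n = 3), both with separate groups.

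**Figure D3:**
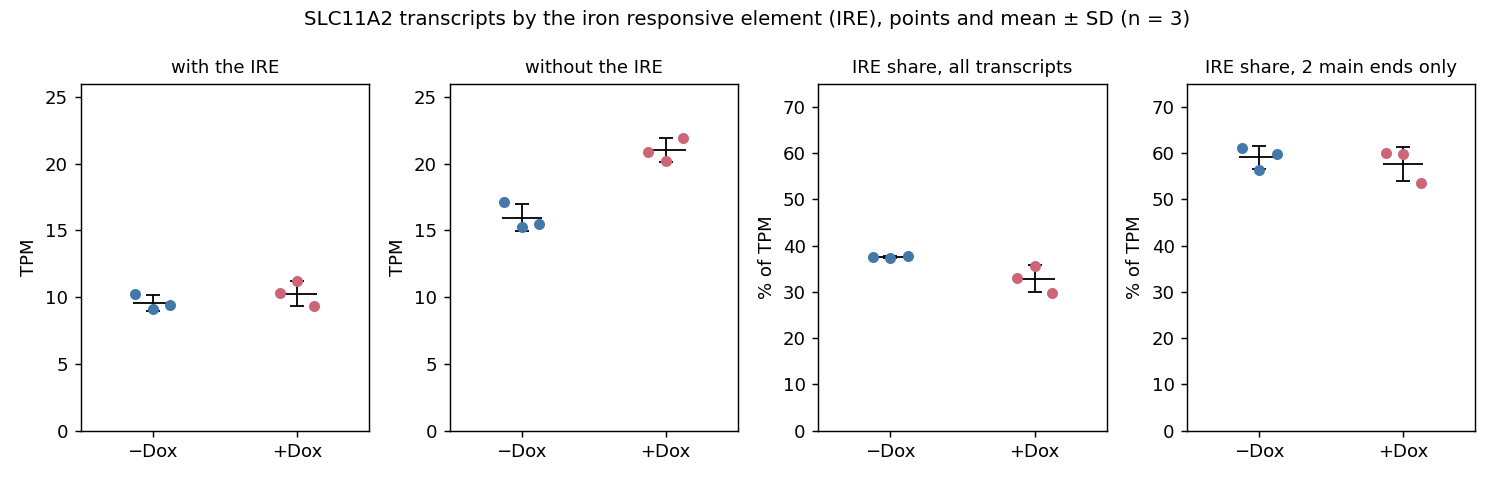
TPM of SLC11A2 transcripts with and without the IRE and the IRE share in percent of TPM, over all transcripts and over the 2 main ends (vertical axes from 0), with points for libraries and lines for mean ± SD of 3. TPM without the IRE is 15.3 to 17.1 in −Dox and 20.2 to 21.95 in +Dox, while the share over the 2 main ends overlaps.

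In TPM, some single SLC11A2 transcripts had separate groups and others overlapped. SLC11A2-201, the full coding form with the IRE, was at 6.43, 6.0 and 5.05 TPM in −Dox and 6.79, 7.76 and 5.22 TPM in +Dox. SLC11A2-229 was at 4.005, 5.09 and 4.51 TPM in −Dox and 6.43, 7.50 and 5.83 TPM in +Dox, with separate groups, and its share was 17.9% ± 3.14 and 21.1% ± 2.66 with overlapping groups. SLC11A2-208, which has the same end without the IRE, was at 2.12, 1.48 and 1.41 TPM in −Dox and was listed at 0, 0 and 1.73 TPM in +Dox. The decay form SLC11A2-206 was at 2.18, 2.20 and 2.69 TPM in −Dox and 4.07, 2.91 and 3.09 TPM in +Dox. Its groups were separate in TPM and overlapped in share. At the start of the gene, 16 first-exon groups were annotated and 5 could be tested. The 2 largest, whose first exons end at 51026310 and 51026315 and so differ by few bases, held 53.1% ± 3.95 and 20.6% ± 2.08 in −Dox and 53.9% ± 5.33 and 16.5% ± 2.95 in +Dox, and neither passed (limma, adjusted p = 0.971 and 0.69). The other 3 tested starts, at 51009117, 50994544 and 51005600, held 8.66%, 4.31% and 3.16% in −Dox and 7.63%, 3.54% and 4.10% in +Dox. The remaining starts held at most 3.46% in either group on average.

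For SLC40A1, the first exon decides whether the ferroportin mRNA has the 5′ IRE. Of 5 first-exon groups 1 was listed at 0 in all libraries. The group with the IRE (SLC40A1-201, SLC40A1-202 and SLC40A1-207, first exon ending at 189580418) held 58.4%, 51.7% and 56.4% of the TPM in −Dox and 51.7%, 56.6% and 58.8% in +Dox. The means were 55.5% ± 3.45 and 55.7% ± 3.64, a difference of 0.208 percentage points (SE 2.89), with overlapping groups (exact permutation test, two-sided, p = 0.7). Transcripts with the IRE were at 27.4 ± 1.21 TPM in −Dox and 24.1 ± 2.34 TPM in +Dox, and those without it at 22.1 ± 2.60 and 19.1 ± 1.49 TPM (SD, n = 3), both with all +Dox libraries below all −Dox libraries.

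The starts without the IRE rest on few reads. SLC40A1-206, a coding fragment of 592 bases whose first exon ends at 189581708, held 26.8% ± 1.31 of the TPM in −Dox and 28.0% ± 2.71 in +Dox but only 294 to 440 counts per library, against 4792 to 7050 counts for the group with the IRE. SLC40A1-203 (first exon ending at 189583725, 139 to 284 counts) held 10.4% ± 2.32 and 9.26% ± 3.26. SLC40A1-204 (189581902, 7 to 36 counts) held 7.31% ± 4.98 and 7.05% ± 3.24. At the 3′ side, SLC40A1-201 alone used the last exon from 189562191 and held 49.8% ± 2.90 in −Dox and 49.4% ± 2.46 in +Dox. The last exons from 189575320, 189565599, 189579880 and 189572961 held on average 29.5%, 10.4%, 7.31% and 2.95% in −Dox and 30.9%, 9.26%, 7.05% and 3.39% in +Dox.

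**Figure D4:**
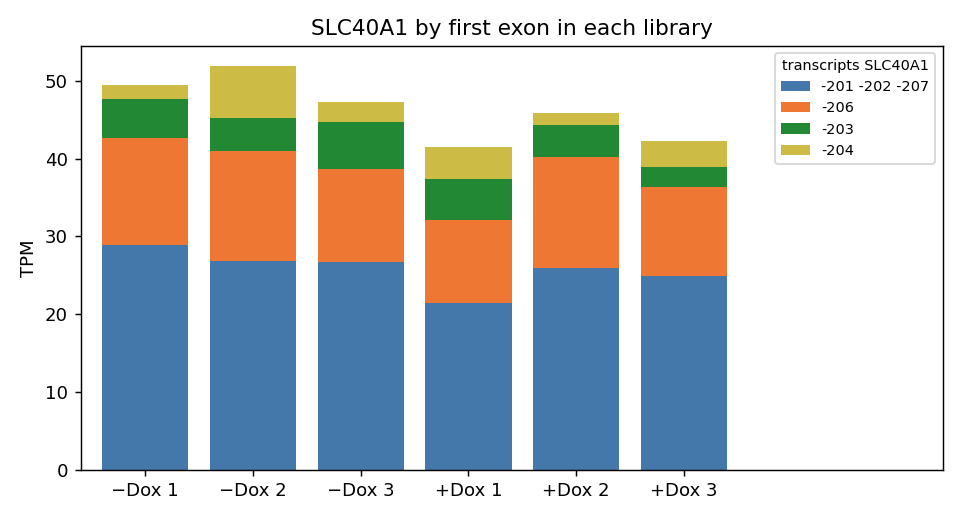
SLC40A1 TPM in each library (bars from 0), stacked by first exon. The lowest segment is the group with the IRE, at 26.7 to 28.9 TPM in −Dox and 21.5 to 25.96 TPM in +Dox, and its share of the bar overlaps between the groups.

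SLC39A14 has a pair of alternative forms of exon 4, of 170 bases each, known to give ZIP14 proteins of different transport properties. With exactly these edges, the exon at 22412037 to 22412206 is in 3 annotated transcripts, among them SLC39A14-204. The exon at 22409946 to 22410115 is in SLC39A14-203. SLC39A14-205 starts with a longer exon, from 22411877 to 22412206, and was not counted in the pair. It was at 0.212 TPM in −Dox and 0.255 TPM in +Dox on average. SLC39A14-204 was at 11.4, 10.1 and 10.7 TPM in −Dox and 6.64, 7.94 and 7.11 TPM in +Dox. SLC39A14-203 was listed at 0, 0 and 0.257 TPM in −Dox and 0.765, 0.28 and 0 TPM in +Dox. The exon of SLC39A14-204 held 100%, 100% and 97.7% of the pair in −Dox and 89.7%, 96.6% and 100% in +Dox, with overlapping groups (exact permutation test, two-sided, p = 0.4). SLC39A8 was mostly SLC39A8-201, which held 60.4% ± 3.498 in −Dox and 63.5% ± 4.26 in +Dox, and SLC39A8-209, at 16.4% ± 3.91 and 20.5% ± 0.679. SLC39A8-202 held 11.2% ± 2.64 and 9.68% ± 3.90, and all 3 are coding. SLC39A8-201 was at 13.2, 12.9 and 10.9 TPM in −Dox and 17.4, 18.8 and 16.0 TPM in +Dox, with separate groups.

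The balance of coding against other transcripts, a grouping added after the data were seen, showed its widest gaps in HEPH and TFR2. Coding HEPH transcripts held 31.5%, 36.7% and 36.1% of the gene's TPM in −Dox and 51.2%, 49.4% and 55.2% in +Dox. All +Dox libraries lay above all −Dox libraries, by 17.2 percentage points on average, at the smallest p that an exact permutation test of 3 against 3 can give (p = 0.1). In TPM, coding HEPH was at 7.27 ± 0.355 in −Dox and 11.3 ± 0.213 in +Dox, while its other transcripts were at 13.7 ± 1.46 and 10.5 ± 1.18. The coding form HEPH-201 was at 0.519, 0.754 and 0.38 TPM in −Dox and 1.72, 3.08 and 0.96 TPM in +Dox, with separate groups. HEPH-202, also coding, was at 0.634, 1.22 and 0 TPM in −Dox and 3.655, 1.13 and 3.18 TPM in +Dox, with overlapping groups. The nonsense-mediated decay form HEPH-207 was at 2.01, 2.38 and 2.89 TPM in −Dox and 1.05, 1.12 and 1.48 TPM in +Dox, with all +Dox libraries lower. The 2 HEPH forms with the largest shares, the retained-intron HEPH-215 and the coding HEPH-206, held 22.3% and 17.0% in −Dox and 18.7% and 18.3% in +Dox, with overlapping groups.

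Coding TFR2 transcripts held 24.5%, 29.1% and 32.3% in −Dox and 38.0%, 38.7% and 36.3% in +Dox, again with no overlap, while its other transcripts stayed at 33.4 ± 3.90 and 33.7 ± 1.19 TPM. Fitted over all genes, neither the HEPH change (log2 ratio 1.01 ± 0.17, unadjusted p = 0.000697) nor that of TFR2 (0.60 ± 0.18, unadjusted p = 0.0149) passed (limma, adjusted p = 0.529 for each). Of all coding or other groups 0.0158% passed, and 7.98% had an unadjusted p under 0.05. Coding shares of TFRC, SLC11A2, SLC39A8 and SLC40A1 were 81.2%, 58.5%, 90.9% and 94.4% in −Dox and 77.3%, 53.6%, 94.1% and 93.7% in +Dox, and among these the groups were separate for SLC11A2 only. In SLC39A14 the coding share was 95.6% and 98.7%, with separate groups and too little of other transcripts to test. STEAP3 has coding transcripts only: STEAP3-203, STEAP3-201 and STEAP3-202 held 32.8%, 38.5% and 24.6% in −Dox and 46.5%, 29.8% and 15.6% in +Dox, with overlapping groups. HFE was mainly HFE-207, at 62.7% ± 6.52 and 61.7% ± 13.0, and the retained-intron HFE-211, at 28.6% ± 6.10 and 21.3% ± 13.6. The coding HAMP-201 and HAMP-203 were listed at 0 in 3 and 2 of the 6 libraries, with at most 16 and 25 counts in the others.

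**Figure D5:**
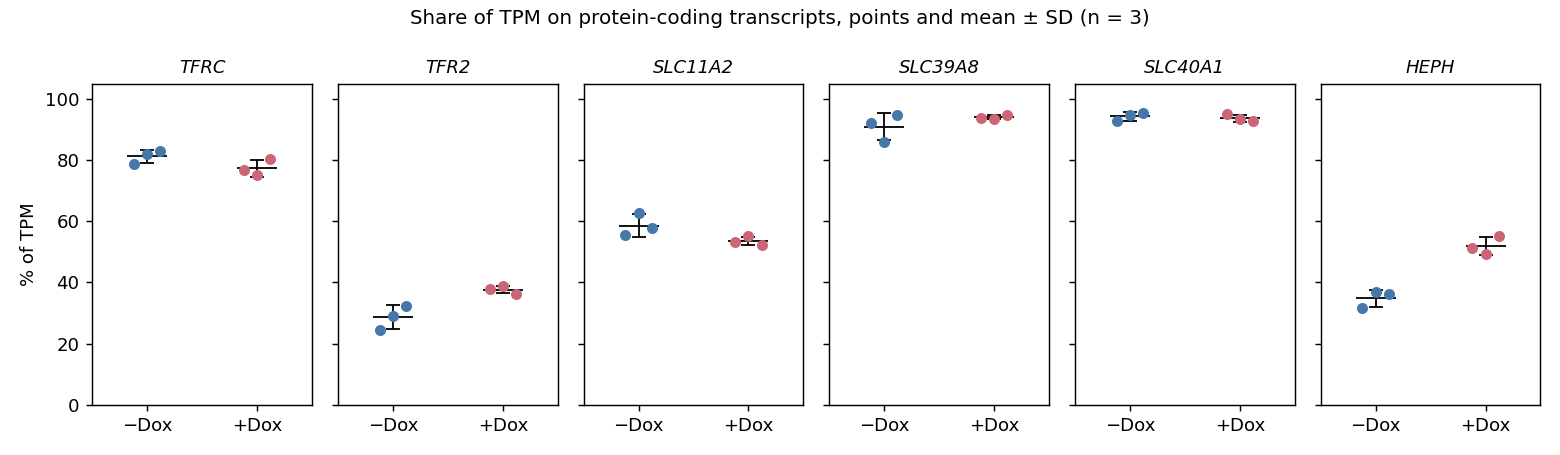
Share of each gene's TPM on protein-coding transcripts in percent (vertical axis, from 0) in the 6 libraries, points with mean ± SD of 3. HEPH and TFR2 are higher in all +Dox libraries, at 49.4% to 55.2% and 36.3% to 38.7%, and the groups of TFRC, SLC39A8 and SLC40A1 overlap.

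Related iron genes were described from lists of the pathway, whose counts stand beside the 8.16% of all genes tested that rose and the 7.68% that fell. Of 15 other iron carriers, reductases and oxidases 12 were tested, 0 rose and 1 fell, or 8.33% called beside 15.8% of all genes tested, with a median log2 fold change of 0.13. The 1 called was mitoferrin 2 (SLC25A28), which imports iron into mitochondria (−0.26 ± 0.08, adjusted p = 0.0456). The duodenal ferrireductase CYBRD1 (0.15 ± 0.05, adjusted p = 0.0691) and melanotransferrin (MELTF, 0.21 ± 0.07, adjusted p = 0.0792) did not pass. Of 9 genes of transferrin receptor traffic 0 rose and 1 fell (11.1% called, beside the same 15.8%), with a median of 0.06. PICALM, a clathrin adaptor that serves the uptake of transferrin receptor, fell from 495 ± 21.9 to 335 ± 14.7 CPM (SD, n = 3), by 0.56 ± 0.05 on the log2 scale (adjusted p = 1.48e-05). The clathrin adaptor subunit AP2M1 and the recycling factor SNX3 had log2 fold changes of 0.15 and 0.13 (adjusted p = 0.073 and 0.0956).

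Of 8 ferritin and iron sensing genes 7 were tested and 3 rose (42.9%, beside 8.16% of all genes tested), and 0 passed as lower, with a median of 0.13. The genes that rose were NCOA4, which takes ferritin to lysosomes (0.34 ± 0.06, adjusted p = 0.00137), the ferritin heavy chain FTH1 (0.27 ± 0.06, adjusted p = 0.0143) and the related poly C binding protein PCBP2 (0.16 ± 0.04, adjusted p = 0.0244). The ferritin light chain FTL, at −0.18 ± 0.06, did not pass (adjusted p = 0.0701). Of 11 genes around hepcidin 9 were tested, and 1 rose (11.1%, beside the same 8.16%): B2M, the partner chain of HFE, by 0.21 ± 0.05 on the log2 scale (adjusted p = 0.021). The protease FURIN and the BMP receptor ACVR1 had log2 fold changes of 0.18 and 0.21 (adjusted p = 0.0657 and 0.0753), and the median of that list was 0.17. In the SLC39 family without SLC39A8 and SLC39A14, 9 genes were tested, 0 rose and 1 fell, SLC39A10 (−0.20 ± 0.05, adjusted p = 0.0145), with a median of −0.10. SLC39A1 and SLC39A6 had log2 fold changes of −0.16 and −0.15 (adjusted p = 0.0891 and 0.108).

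Among 7 further mRNAs known to carry an IRE, 2 rose and 1 fell, beside 8.16% and 7.68% of all genes tested, with a median of −0.02. ALAS2, the erythroid enzyme that starts heme synthesis, rose from 30.4 ± 1.43 to 87.8 ± 6.08 CPM (SD, n = 3), by 1.53 ± 0.06 on the log2 scale (adjusted p = 2.50e-08). FTH1 rose as given above, and the kinase CDC42BPA fell by 0.26 ± 0.05 (adjusted p = 0.00394). With TFRC, SLC11A2 and SLC40A1 counted, 3 of the 10 mRNAs rose and 3 fell, beside the same shares of all genes, and the fall of SLC40A1 was lost when any library was left out.

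Markers of red cell precursors differed among themselves. Of 5 erythroid markers 2 rose and 0 fell, beside 8.16% and 7.68% of all genes tested, the regulators TAL1 by 0.44 ± 0.05 and KLF1 by 0.46 ± 0.07 on the log2 scale (adjusted p = 8.34e-05 and 0.00121). GATA1 (0.12), HBG1 (−0.12) and HBG2 (0.02) did not pass (adjusted p = 0.113, 0.219 and 0.899). The 5 summed to 5857, 6694 and 6014 CPM in −Dox and 6407, 5779 and 6127 CPM in +Dox, with overlapping groups and HBG2 most abundant. Their part in the changes of the iron transport genes was not tested. The hepatocyte markers, of the main tissue of HAMP and TFR2, summed to 0.142 to 0.321 CPM in each library, with ALB most abundant and SERPINA1 at 0 counts, and 0 of the 1 tested passed. Lymphoid markers summed to 15.7 to 28.3 CPM, nearly all CD3D, with MS4A1 and PAX5 at 0 counts, and 0 of the 2 tested passed. Epithelial markers summed to 497 to 669 CPM, with KRT8 most abundant and CDH1 at or below 0.177 CPM, and 0 of the 3 tested passed.

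The genes whose log2 CPM was most like that of TFRC over the 6 libraries, among 9288 genes with a mean of at least 10 CPM, were AMOTL1, LRRFIP1 and RASSF3 (Pearson r of 0.997, 0.997 and 0.995). For TFR2 they were SAP130, C21orf58 and FYN (r of 0.998, 0.997 and 0.996), and for SLC40A1 PHACTR2, PPP1R10 and NOL11 (r of 0.997, 0.994 and 0.993). The points are 6 libraries in 2 groups, and r includes the difference between −Dox and +Dox.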

How the data were processed

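The authors quantified 6 polyA libraries (paired-end, 150 cycles) with Salmon 1.10.2 and deposited per transcript an estimated count, not scaled for depth or length, and a TPM value, scaled by the authors' Salmon run for effective length. The submitters' processing notes name hg38. The index, strand and bias settings are not given in the sources used here. Of 252045 transcripts, 251612 matched GENCODE 44 and 433 did not.

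Estimated counts were summed per gene, rounded and tested with edgeR 4.0.16 (TMM, glmQLFTest, mean count above 10) in R 4.3.3. CPM are scaled by TMM. Shares are of TPM and were tested with limma 3.58.1 (trend) on log2 ratios with a pseudocount of 0.1 TPM, for transcripts or exon groups that reached 1 TPM and 10 counts on average. Single shares had exact permutation tests (scipy 1.17.1). Errors are SD or SE as named. DESeq2 1.42.0 was an alternative. On simulated data, with changes larger than any called in the 10 genes, edgeR called 200 of 200 changed genes and 2 of the unchanged among 21045. These calls also needed an absolute log2 fold change above 1. The counts therefore do not describe calls of small changes at an adjusted p alone. With shifts of 1 fixed size in the log2 ratio, the limma test called 109 of 200 changed transcripts and 9 of the unchanged among 34475.

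The genes and lists were chosen with earlier results of these data known. All 10 genes are named, with up to 3 genes by p of each list, overlapping opposite-strand genes, transcripts with at least 10% of a gene's TPM (at most 5), first and last exon groups of SLC11A2 and SLC40A1 (rare ones as a range), and the 3 genes most like TFRC, TFR2 and SLC40A1. FTL, HEPH-201, HEPH-202, HEPH-207, SLC11A2-207, SLC11A2-208, SLC11A2-224, SLC11A2-225 and the transcripts given for SLC39A14 exons or named under the alternatives were named after their values were seen. Of the erythroid markers, 1 is not reported here and is left out of their counts and sums. Protein sequences were not used here. Other experiments of the study were not analysed here.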

Additional observations from a re-analysis of the deposited data

How the results depend on the processing

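Over 13 alternatives (DESeq2, RLE, length offsets, other filters, each library left out, the replicate block), TFRC, TFR2, SLC11A2, SLC39A14 and SLC39A8 kept their direction and call, and STEAP3, HFE, HEPH and HAMP stayed uncalled, HAMP with no adjusted p in 2 of them. SLC40A1 was called in 4 of 13 (log2 fold change −0.19 to −0.12). All genes called numbered 3333 (1717 higher and 1616 lower), with DESeq2 1893 higher and 2046 lower, and with edgeR's length offset 1882. With the fold limit the main count was 308, and 515 with no filter. The numbers 1 to 3 did not pair the samples (correlations 0.008, −0.06 and −0.003 of same-numbered deviations). With the replicate block 2490 genes were called, SLC40A1 was not (adjusted p = 0.109), the other calls of the 10 genes did not change, and the share tests called 0 transcripts, 0 first-exon, 0 last-exon and 0 coding groups.

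Transcripts called numbered 21, and 11 with a pseudocount of 1 TPM, 4 at 5 TPM or more, 49 with no filter and 19 to 45 with a library left out. First-exon groups numbered 9, then 4, 3, 20 and 13 to 23. Last-exon groups numbered 6, then 2, 2, 1 and 2 to 16. Coding or other groups numbered 2, with 0 at the pseudocount of 1, 0 with no filter and 0 to 4 with a library left out. The coding and other groups of a gene mirror each other with the same p, so a called gene is counted in both. The cause of these changes was not tested. Without +Dox replicate 3, TFRC-202, TFRC-229 and SLC11A2-208 were called (limma, smallest adjusted p = 0.00887). TFRC-202 and SLC11A2-208 were listed at 0 TPM in the other +Dox libraries, and TFRC-229 at 0 TPM in all −Dox libraries. The SLC11A2 difference of −4.72 points was −1.37 over its 2 main ends, −3.07 over coding transcripts, −3.73 in estimated counts and −6.15 to −3.21 with a library left out. That of SLC40A1 (0.208) was −1.70 to 2.21, and −0.0811 over coding transcripts, and that of SLC39A14 (−3.81) was −6.10 to −0.933. Some shares rest on short or rare transcripts with few counts, and the effect of these on the results was not tested.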
